A study of Homo sapiens with 24 samples.

Results

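The genes described here are named for the mitochondrial respiratory chain and ATP synthase. Most encode protein subunits, some encode assembly factors, and 4 are noncoding rows (antisense or divergent RNAs and a pseudogene). All were taken by name: every row of the deposited annotation table whose symbol begins with NDUF, UQCR, COX or ATP5, with 1 RefSeq accession kept per gene, the one with the highest mean count. This gave 74 rows and 71 genes of the 9148 genes in that table. Of the 71 genes, 70 passed the filter on low counts (above 1 CPM, the count relative to library size, in at least 2 libraries) and were tested, and NDUFA12, with a mean of 6.38 counts per library, did not.

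The respiratory chain passes electrons from NADH and succinate to oxygen and pumps protons across the inner mitochondrial membrane. Complex I (NADH dehydrogenase, the NDUF genes) takes electrons from NADH, complex III (UQCR genes) hands them to cytochrome c, and complex IV (cytochrome c oxidase, COX genes) gives them to oxygen, while ATP synthase (ATP5 genes) makes ATP as protons flow back. The core subunits carry the redox centres, the accessory subunits surround them, and the assembly factors (the NDUFAF genes, COX10, COX17 and COX19 among others) help to build the complexes without being part of the finished enzyme. All of the genes studied here lie in the nucleus.

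RNA was measured in Nalm6, a human B-cell acute lymphoblastic leukemia line, in 24 libraries. The cells carried a lentiviral shRNA against G9a (shG9a), GLP (shGLP) or HP1γ (shHP1γ), or against a nonspecific sequence (shNS), and each population was treated for 8 h with the synthetic glucocorticoid dexamethasone (dex) at 100 nM or with its vehicle ethanol. G9a and GLP are histone H3 lysine 9 methyltransferases and HP1γ is a chromatin protein that binds methylated lysine. The cells were puromycin-resistant populations, the controls as much as the depleted cells, and each of the 8 conditions had 3 replicates made on different days.

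Library totals ran from 9289533 to 14387770 counts (median 11132064.5), and the 71 genes together held 0.976% to 1.24% of the counts. Of 11 B-lineage markers, CD79A, IGLL1 and MME reached 1 CPM in every library, whereas CD79B, DNTT and CD22 were at 0 in all of them, so the labelled cell type rested on few markers in this table. The summed T-cell markers (6 genes) stayed at or below 0.271 CPM and the erythroid markers (5 genes) at or below 0.514 CPM. The summed myeloid markers (6 genes) lay between 20.4 and 34.0 CPM in the 6 shGLP libraries and between 2.75 and 11.7 CPM in the other libraries; their part in the results below was not tested. Among the targeted genes, EHMT1 (GLP) had 18 to 50 counts per library and was 0.37 lower on the log2 scale in shGLP than in shNS cells with dex (adjusted p = 0.41) and 0.65 lower with ethanol (adjusted p = 0.0923). CBX3 (HP1γ, accession NM_016587) was 0.61 lower in shHP1γ cells with dex (adjusted p = 0.142) and 0.50 lower with ethanol (adjusted p = 0.277). Its other accession (NM_007276) was 0.15 lower with dex (adjusted p = 0.842) and 0.30 lower with ethanol (adjusted p = 0.644). Neither depletion passed edgeR's quasi-likelihood test at these low counts, which do not show how far the targets were depleted. The G9a transcript was not analysed here.

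Some libraries stood apart for these genes. For each of the 45 members that have a single RefSeq accession in the count table, the log2 deviation of every library from the mean of the 24 was taken, and the median over the members was used. The replicate 2 library of dex-treated shG9a cells lay 0.25 above that mean and was the highest of the 24 for 27 of the 45 members. It also had the largest total of all libraries, the median of 52 ribosomal protein genes lay 0.44 above the mean in it, and the summed B-lineage markers reached their lowest value in its group (50.7 CPM). The replicate 1 library of dex-treated shHP1γ cells lay 0.23 below the mean and was the lowest for 28 of the 45 members, and the ethanol library of the same replicate lay 0.15 below it. The replicate 2 library of ethanol-treated shHP1γ cells lay 0.16 above the mean and was the highest for 8 members. Results of the genes described that change without the replicate 2 dex library of shG9a cells or without replicate 1 of shHP1γ cells are given with and without them. Further calls gained in these settings are in part given only as counts, in the last section.

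**Figure D1:**
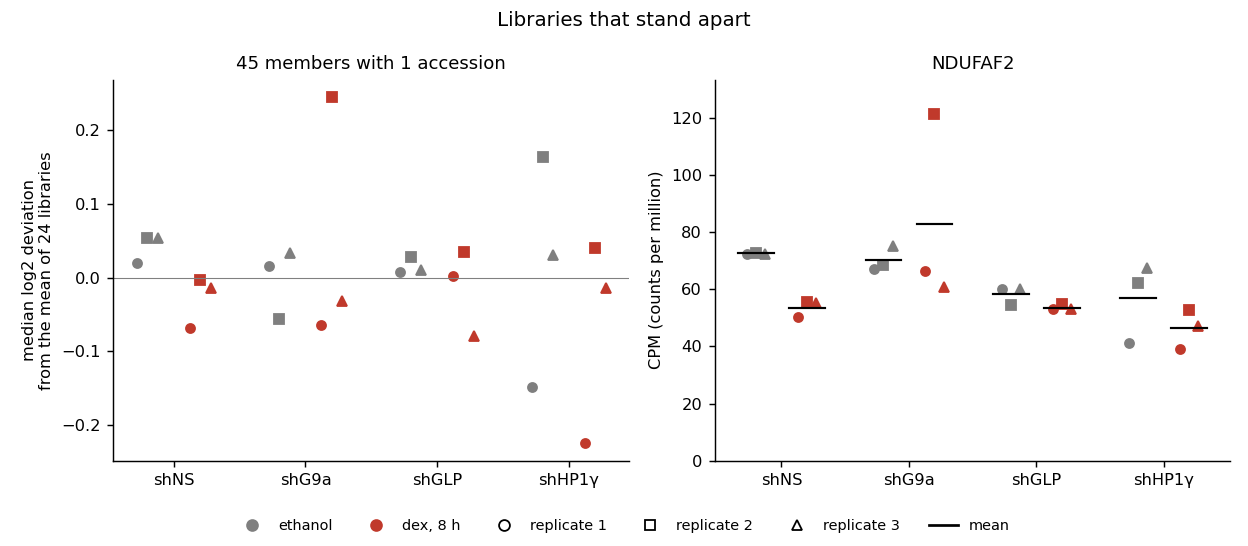
The left panel plots, for each of the 24 libraries, the median over 45 members of the log2 deviation from the mean of all libraries; the right panel plots the CPM of NDUFAF2 in each library with the mean of each group as a bar. Grey symbols are ethanol and red symbols dex, and the symbol shape gives the replicate. The replicate 2 library of dex-treated shG9a cells is the highest in both panels, at 0.25 on the left and 121.2 CPM on the right.

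What could be measured depended on how many RefSeq accessions a gene had in the count table. The 45 members with a single accession had mean counts from 14.1 to 23532 (median 2091), and all but 1 of them reached 50 counts. The 26 members with 2 or more accessions had mean counts from 6.38 to 453 (median 13.3), and only NDUFV3, NDUFA8, ATP5D, NDUFAF3 and NDUFB4 reached 50. These genes include constitutive core parts: NDUFV1, which carries the flavin and the NADH site of complex I, had 6.67 counts; COX4I1, the largest nuclear-encoded subunit of complex IV, had 38.6; and ATP5A1, the alpha subunit of the catalytic head of ATP synthase, had 18.5. Adding all accessions of a gene did not bring the counts back, since the 5 accessions of ATP5A1 summed to 21.3 counts, against 23532 for its partner beta subunit ATP5B, and the 6 accessions of COX4I1 summed to 49.5. The same split was present in the whole table: 33.5% of 11273 genes with a single accession, but 11.1% of 8008 genes with more, had a mean of at least 100 counts. How reads shared between accessions were counted is not given in the sources used here, and a low count of such a gene is therefore not read as low expression. The counts and tests below are led by the 45 members with a single accession, which include the 4 noncoding rows. Accessions of single-accession genes with at least 50 counts on average (4236 in all) serve as the comparable background.

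**Figure D2:**
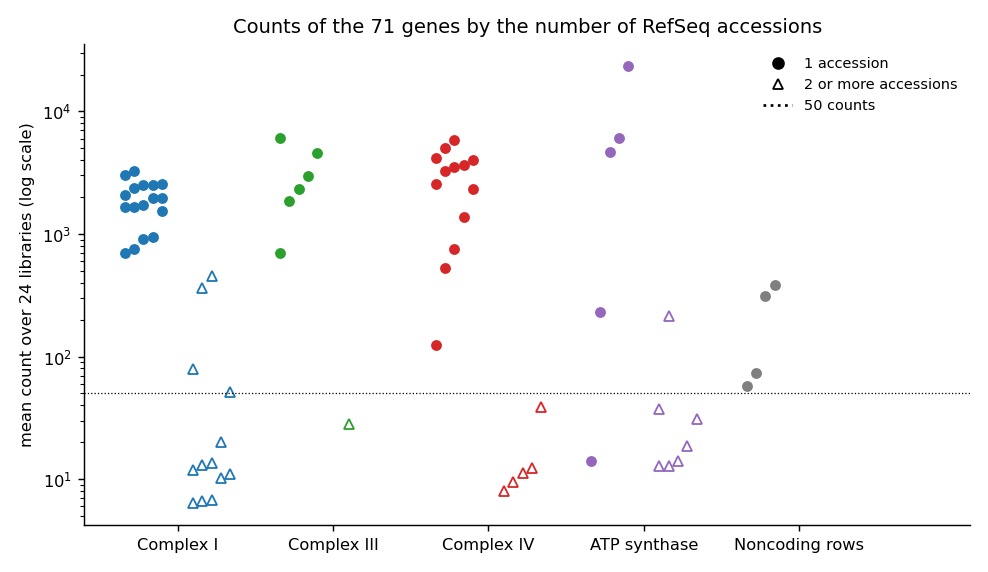
Mean count over 24 libraries (log axis) of each of the 71 genes, grouped by complex; filled circles are genes with 1 RefSeq accession in the count table and open triangles genes with 2 or more, and the dotted line marks 50 counts. All filled circles except 1 lie above the line and 5 of the triangles do.

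Levels between genes were compared as CPM per kilobase of the gene's canonical transcript in the GENCODE annotation. That transcript can differ in length from the RefSeq transcript whose reads were counted, so the order of the genes is approximate. ATP5B was the highest of the 45, at 1198 ± 90.6 CPM per kb (SD, n = 24 libraries, all conditions). It was followed by complex IV subunits, with COX6A1 at 967.5 ± 103.9, COX6B1 at 727.1 ± 61.2, COX7C at 710.2 ± 51.1 and COX8A at 665.3 ± 50.9 CPM per kb, of which COX6B1, COX7C and COX8A overlapped in their ranges over libraries, as did ATP5B and COX6A1. The peripheral stalk subunit ATP5O followed at 551.9 ± 30.7 CPM per kb, and the highest members of complex I were the accessory subunits NDUFS6 (436.1 ± 41.8), NDUFB10 (426.7 ± 44.8) and NDUFA13 (426.1 ± 38.3), which were within their spread of each other. In complex III the core proteins UQCRC2 and UQCRC1 lay at 281.6 ± 12.6 and 258.2 ± 18.2 CPM per kb. UQCRC2 varied the least of these, 1.21-fold between its lowest and highest library, whereas the complex I assembly factor NDUFAF2 varied 3.10-fold, and 1.92-fold without the replicate 2 dex library of shG9a cells.

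Several subunits of complex IV exist as paired isoforms, and here the general form stood far above the tissue-restricted form. COX6A1 stood at 967.5 CPM per kb while COX6A2, the heart and skeletal muscle form, had 0 counts in all 24 libraries, which allows up to 0.868 CPM per kb in a library. COX6B1 stood at 727.1 CPM per kb and its testis form COX6B2 at 0.156, with 2.75 counts on average. COX8A stood at 665.3 CPM per kb, whereas COX8C had 1 count at most in any library, and COX7B stood at 93.9 CPM per kb with COX7B2 at 0 counts in every library. NDUFA4, now counted among complex IV subunits, had 155.4 CPM per kb and its relative NDUFA4L2, known as a hypoxia-induced gene, had 11.8. The partners named here were not members, apart from NDUFA4L2, and all of these genes had a single accession. UQCRHL, a near copy of UQCRH, had 700.9 counts against 28 for UQCRH, which has 3 accessions, and reads of the pair cannot be told apart here; the same holds for ATP5L2 and ATP5L. Other pairs could not be set against each other, since one or more of each had several accessions: the genes for the c subunit of ATP synthase had 1.33 (ATP5G1), 37.5 (ATP5G2) and 30.8 counts (ATP5G3), the COX7A genes had 4.75 (COX7A1), 4.88 (COX7A2) and 9.42 counts (COX7A2L), and COX4I2 had 0.0833 counts. Among the 71 rows, COX10-AS1, NDUFA6-AS1 and NDUFB2-AS1 are antisense or divergent RNAs and UQCRBP1 is a pseudogene; no use of strand is stated for the counting, so their reads cannot be told apart from those of the genes they overlap.

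The first comparison asked which of these genes responded to dex in control cells. Few did and by little: the complex I assembly factor NDUFAF4, the complex I subunit NDUFA9 and the ATP synthase beta subunit ATP5B fell, and the complex IV copper chaperone COX19 rose, with fold changes of 0.805, 0.852, 0.892 and 1.22. These were 4 of the 70 members tested, where 9.95% of all 10167 accessions tested passed. All 4 were among the 45 single-accession members, and 17.2% of the 4236 comparable accessions passed. The members were therefore not called more often than other genes. Adjusted p-values come from the quasi-likelihood F test of edgeR, adjusted over all accessions tested by the Benjamini-Hochberg method, with a limit of 0.05. In these bulk libraries, a smaller share of cells with a transcript and less of it per cell cannot be told apart.

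NDUFAF4 (NM_014165, chr6:97337191-97345767 on the minus strand of GRCh37) stood at 82.3, 92.4 and 95.1 CPM with ethanol and at 64.5, 76.5 and 76.4 CPM with dex in shNS cells. The groups did not overlap, and the log2 fold change was -0.31 ± 0.061 (SE, adjusted p = 0.00114). NDUFA9 (NM_005002, chr12:4758261-4803483, plus strand), an accessory subunit at the junction of the membrane and matrix arms of complex I, had 236.8, 238.3 and 237.9 CPM with ethanol and 195.3, 210.7 and 202.2 CPM with dex. Its groups were apart too, with a log2 fold change of -0.23 ± 0.054 (SE, adjusted p = 0.00555). ATP5B (NM_001686, chr12:57031959-57039768, minus strand) went from 2083.7, 2216.3 and 2207.5 CPM to 1863, 1974.1 and 1965.5 CPM, all dex libraries below all ethanol libraries, with a log2 fold change of -0.17 ± 0.049 (SE, adjusted p = 0.0307). COX19 (NM_001031617, chr7:938415-1015185, minus strand), which takes part in copper delivery during complex IV assembly, went the other way. It had 119.5, 117.7 and 111.7 CPM with ethanol and 139.9, 135.4 and 148.4 CPM with dex, again without overlap, and a log2 fold change of 0.28 ± 0.071 (SE, adjusted p = 0.0109). With replicate 3 left out of all groups only NDUFAF4 of these 4 passed (adjusted p = 0.0489, against 0.179 for NDUFA9, 0.388 for ATP5B and 0.362 for COX19), and with replicate 1 left out NDUFA9 (0.0786) and ATP5B (0.129) did not pass.

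The plot of these genes by condition shows all of the libraries, the depleted cells included.

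**Figure D3:**
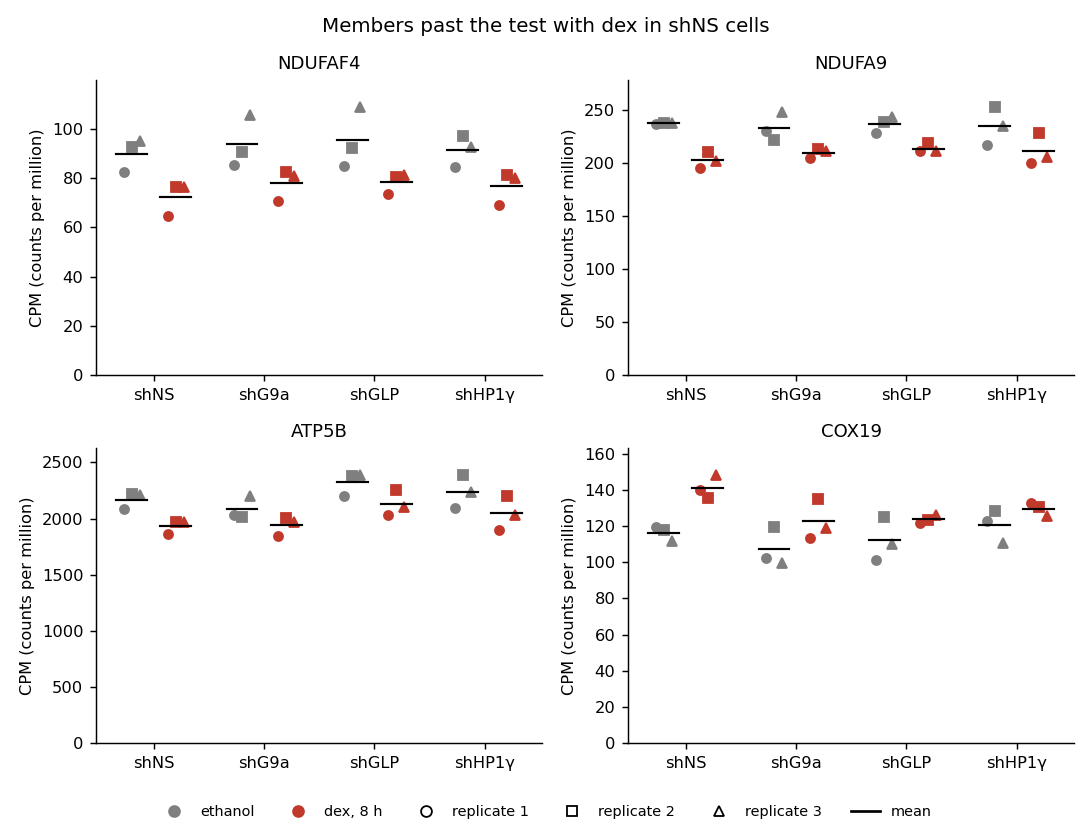
CPM (linear axis from 0) of NDUFAF4, NDUFA9, ATP5B and COX19 in the 24 libraries, by shRNA; grey is ethanol, red is dex for 8 h, the symbol shape gives the replicate and the bar the mean of 3. The dex libraries of NDUFAF4 lie below the ethanol libraries under every shRNA.

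The promoters of the genes past the test are shown for the 3 of these 4 that the RefSeq promoter table holds, as each gene's first 30 transcribed bases and the 250 bases before them. The sequences come from RefSeq (GRCh38.p14) and matched GRCh37 once each, at chr6:97345738-97346017 (NDUFAF4, minus strand), chr12:4758030-4758309 (NDUFA9, plus strand) and chr7:1015156-1015435 (COX19, minus strand). Capitals mark matches on either strand to motifs of factors known for nuclear genes of mitochondrial proteins.
NDUFAF4: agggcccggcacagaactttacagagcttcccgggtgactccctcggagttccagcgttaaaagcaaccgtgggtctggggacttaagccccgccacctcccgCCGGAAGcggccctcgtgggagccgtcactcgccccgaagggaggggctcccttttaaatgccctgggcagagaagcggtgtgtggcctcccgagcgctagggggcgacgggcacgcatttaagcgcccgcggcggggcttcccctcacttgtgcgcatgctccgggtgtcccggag
NDUFA9: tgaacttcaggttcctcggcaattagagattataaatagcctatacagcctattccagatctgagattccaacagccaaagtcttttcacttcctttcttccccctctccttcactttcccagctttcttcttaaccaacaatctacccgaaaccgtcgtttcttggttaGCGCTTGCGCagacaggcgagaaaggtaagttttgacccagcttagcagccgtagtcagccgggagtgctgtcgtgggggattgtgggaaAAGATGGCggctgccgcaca
COX19: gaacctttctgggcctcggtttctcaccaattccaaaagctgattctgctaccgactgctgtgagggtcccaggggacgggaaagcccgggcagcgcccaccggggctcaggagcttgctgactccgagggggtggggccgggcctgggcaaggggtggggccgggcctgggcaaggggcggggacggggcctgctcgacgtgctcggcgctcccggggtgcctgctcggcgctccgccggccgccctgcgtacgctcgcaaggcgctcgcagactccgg
The capitals in NDUFAF4 are a GABP (ETS family) match at bases -147 to -141 from the start site. Those in NDUFA9 are an NRF1 match on the minus strand at -80 to -71 and a YY1 match at 10 to 17, just past the start. COX19 held none of the 5 motifs searched.

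Over the 61 members with a promoter in that table, the GABP core CCGGAAG was present in 31.1%, against 10.7% of all 27305 promoters. The YY1 letters AAGATGGC were present in 19.7% against 3.03%, the NRF1 letters (GCGCA and GCGC around 1 free base) in 18.0% against 6.28% and the E-box CACGTG in 11.5% against 7.43%. The members' promoters were also richer in G and C, with a median of 62.3% against 58.3%. A glucocorticoid response element (GNACA and TGTNC around 3 free bases) was present in 1 of the 61 promoters (1.64%, against 0.388% of all), that of the antisense row NDUFB2-AS1. These matches were counted on both strands over the full promoter entries, which are longer than the stretches printed above. COX10 and COX10-AS1 start side by side, as do NDUFA6 and NDUFA6-AS1, and each of them counts separately. The matches describe the letters in these entries and not bound sites.

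Below the limit of the test, the members leaned one way. With dex in shNS cells 38 of the 45 single-accession members had a log2 fold change below 0 (84.4%), against 59.9% of the comparable accessions, and their median was -0.08 against -0.04. The lean was smaller in number under other scalings, 33 of 45 with TMM factors (51.5% of comparable accessions) and 35 of 45 with DESeq2's size factors (53.1%). It was fullest in complex I, where all 17 single-accession members were below 0, with a median of -0.14 and a range from -0.44 to -0.01; with TMM or DESeq2 scaling 16 of 17 were. In complex III 5 of 6 were below 0 (median -0.07), in complex IV 10 of 13 (median -0.04) and in ATP synthase 4 of 5 (median -0.05). NDUFAF4 and NDUFA9 of these 17 passed the test, and 9 of the 70 members had an unadjusted p under 0.05, against 21% of all accessions, so the lean is a count of signs and not of called genes.

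The lowest value among the 17 single-accession members of complex I belonged to NDUFAF2, an assembly factor that binds a late intermediate of the enzyme. NDUFAF2 stood at 72.5, 72.6 and 72.5 CPM with ethanol and at 50.2, 55.6 and 55.1 CPM with dex, groups well apart, with a log2 fold change of -0.44 ± 0.16 (SE, adjusted p = 0.0905). The spread in the model is shared by all 24 libraries. Without the replicate 2 library of dex-treated shG9a cells (121.2 CPM) the SE was 0.11 and the adjusted p 0.00663. Without shHP1γ replicate 1 they were 0.15 and 0.045, at a log2 fold change of -0.44 in both. Other complex I members also passed in shNS cells in these settings, NDUFV2 in the first (-0.18, adjusted p = 0.0407) and NDUFS3 in the second (-0.16, adjusted p = 0.0199).

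The second comparison asked for the dex response in cells depleted of G9a, GLP or HP1γ. NDUFAF4 fell in each of them and was the only member to pass, in shG9a (6.24% of all accessions passed), in shGLP (3.29%) and in shHP1γ cells (3.22%). In shG9a cells NDUFAF4 went from 85.3, 90.7 and 105.6 CPM to 70.8, 82.3 and 80.9 CPM, a log2 fold change of -0.27 ± 0.061 (SE, adjusted p = 0.00969). In shGLP cells it went from 84.7, 92.1 and 109.0 CPM to 73.6, 80.3 and 81.2 CPM, a change of -0.28 ± 0.061 (adjusted p = 0.00936). In shHP1γ cells it went from 84.3, 96.9 and 92.6 CPM to 69.0, 81.4 and 80.2 CPM, a change of -0.25 ± 0.061 (adjusted p = 0.0207). These 3 calls were less firm than that in shNS cells. Without shHP1γ replicate 1 the change in shHP1γ cells was -0.23 (adjusted p = 0.105), and with replicate 1, 2 or 3 left out of all groups it did not pass (adjusted p = 0.229, 0.114 and 0.195). In shG9a and shGLP cells it did not pass without replicate 1 (0.0603 and 0.0539) or without replicate 3 (0.239 and 0.567). The ethanol and dex groups of NDUFAF4 did not overlap under any shRNA. The contrasts share no libraries, but they come from the same model, with a shared spread and shared replicate terms, so their p-values are not independent. The difference of its dex effect from that in shNS cells was 0.05 (95% interval -0.13 to 0.23) for shG9a, 0.03 (-0.15 to 0.21) for shGLP and 0.06 (-0.12 to 0.24) for shHP1γ.

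The other members called in shNS cells had smaller values in the depleted cells and did not pass. NDUFA9 had log2 fold changes of -0.15 in all 3 (adjusted p = 0.1, 0.168 and 0.164 in shG9a, shGLP and shHP1γ cells). Without shHP1γ replicate 1 it passed in shG9a cells (-0.15, adjusted p = 0.048), as did the noncoding row NDUFA6-AS1 (0.34, adjusted p = 0.0238). ATP5B had -0.10, -0.13 and -0.13, and COX19 had 0.19, 0.14 and 0.11. The tests of the difference from shNS cells did not pass for any of them. For COX19 the differences were -0.09 (95% interval -0.30 to 0.12), -0.14 (-0.35 to 0.07) and -0.17 (-0.38 to 0.04), so these libraries do not show whether the response of COX19 was smaller after depletion.

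The number of single-accession members below 0 was 39 of 45 in shHP1γ cells (against 57.6% of comparable accessions), 33 of 45 in shGLP cells (against 57.7%) and 13 of 45 in shG9a cells (against 49.2%). The latter 2 turned on single replicates. In shG9a cells it was 39 of 45 with replicate 2 left out of all groups (86.7%, against 56.3%), and in shGLP cells 25 of 45 with replicate 3 left out (55.6%, against 56.3%). Left out in turn, the replicates gave 36 to 42 of 45 in shHP1γ cells and 32 to 40 of 45 in shNS cells. All 17 complex I members were below 0 in shHP1γ cells (median -0.12), 16 of 17 were in shGLP cells (median -0.05, and 14 of 17 with TMM factors) and 5 of 17 in shG9a cells (median 0.08). Without the replicate 2 dex library of shG9a cells, 10 of 17 complex I members (median -0.03) and 26 of the 45 were below 0 there (57.8%, against 54.5%), and with replicate 2 left out of all groups 15 of 17 complex I members were. Across shNS, shGLP and shHP1γ cells together, 30 of the 45 (66.7%) were below 0 in each of the 3, against 43.5% of the comparable accessions, and with TMM factors 24 of 45 (53.3%, against 37.1%). Members of 1 complex are not independent of each other, and no test was made of these counts. At an unadjusted p under 0.05 there were 12 members in shG9a cells (20% of all accessions), 5 in shGLP cells (14.3%) and 6 in shHP1γ cells (13.6%).

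**Figure D4:**
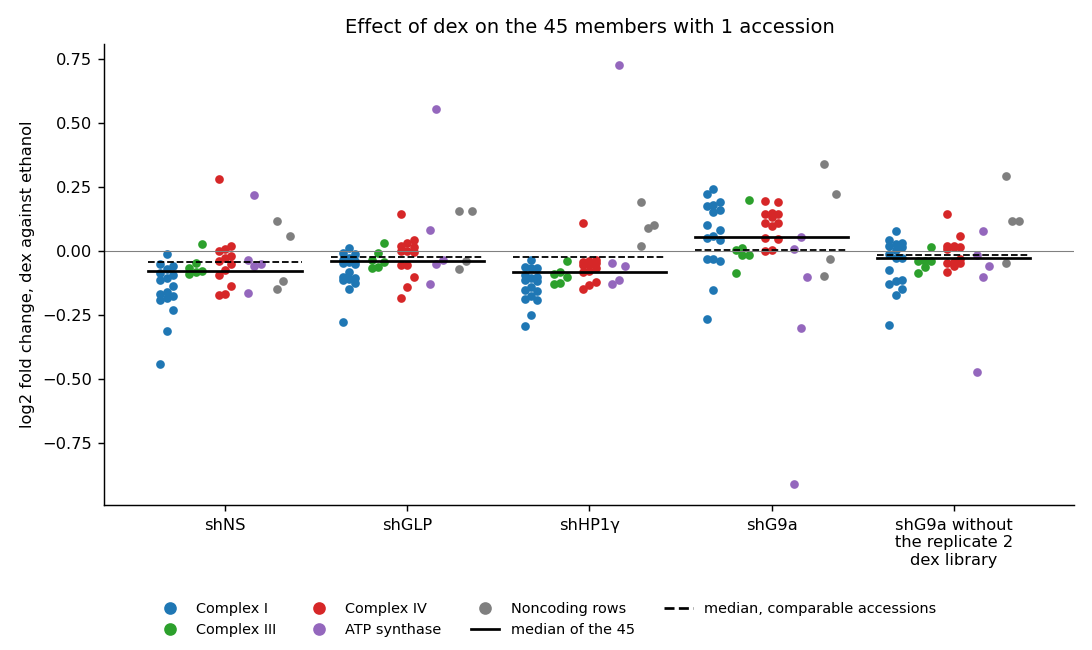
Log2 fold change with dex against ethanol of the 45 members with 1 accession, by shRNA and coloured by complex; the last column repeats shG9a without its replicate 2 dex library. Solid lines are medians of the 45 and dashed lines medians of the comparable accessions; complex I is below 0 for 17 of 17 members in shNS, 16 of 17 in shGLP and 17 of 17 in shHP1γ cells.

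The third comparison set depleted against control cells under dex, the level that the study used to define dependence on each coregulator. In shG9a cells NDUFAF2, NDUFA6 and NDUFS3 were higher and ATP5G3 was lower than in shNS cells, 4 of 70 members where 8.8% of all accessions passed. NDUFAF2 stood at 66.5, 121.2 and 61.0 CPM in shG9a cells and at 50.2, 55.6 and 55.1 CPM in shNS cells, with a log2 fold change of 0.61 ± 0.16 (SE, adjusted p = 0.0172). The groups did not overlap, but the second value was far above the others. NDUFA6, an accessory subunit, showed the same shape with 147.3, 218.0 and 146.7 CPM against 130.2, 142.5 and 135.8 CPM (log2 fold change 0.32 ± 0.098, adjusted p = 0.0438). NDUFS3, a core subunit of the arm that reaches into the matrix, had 212.7, 230.4 and 209.3 CPM against 187.2, 191.1 and 188.9 CPM (0.20 ± 0.058, adjusted p = 0.0311), a difference present in every library. ATP5G3, one of the genes for the ring subunit c of ATP synthase, had 2.08, 1.37 and 2.19 CPM against 3.13, 2.84 and 3.31 CPM (-0.74 ± 0.22, adjusted p = 0.0349), from 1 of 3 accessions with a mean of 30.8 counts.

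None of these calls held without the replicate 2 dex library. Without it none of the 70 members passed edgeR's test (5.57% of all accessions still did), and 6 had an unadjusted p under 0.05 (17.9% of all). The log2 fold change was 0.27 for NDUFAF2 (adjusted p = 0.225), 0.13 for NDUFA6 (0.406), 0.16 for NDUFS3 (0.151) and -0.68 for ATP5G3 (0.112). With replicate 3 left out of all groups, which keeps that library, none of the 4 passed either (adjusted p = 0.0512, 0.146, 0.191 and 0.201). Their log2 fold changes were then 0.80, 0.41, 0.23 and -0.81, larger in size than with all libraries. ATP5G3 also did not pass without replicate 1 (0.0558). All 17 complex I members were above 0 with the library (median 0.17) and 13 of 17 without it (median 0.06). The same library held the lowest value of ATP5E, the epsilon subunit of the ATP synthase head, at 8.06 CPM against 16.3 to 26.2 CPM in the other 23 libraries, so not every member was high in it.

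In shGLP and shHP1γ cells no member differed from shNS cells under dex by edgeR's test (5.77% and 4.09% of all accessions passed) or by DESeq2 (7.74% and 6.59%). At an unadjusted p under 0.05 there were 4 members in shGLP cells (16.5% of all accessions) and 1 in shHP1γ cells (15.6%). The 95% interval of the fold change was set against a bound of 1.5-fold from no difference. It lay within the bound for 43 of the 45 single-accession members in shGLP and 44 of 45 in shHP1γ cells. The bound is wider than the fold change of any member called with dex in shNS cells. Lying within it therefore does not exclude differences of that size. For shHP1γ the sign depended on its replicate 1. With it 43 of the 70 members were below 0 (44% of all accessions were), and 29 of the 45 with a single accession (64.4%, against 46% of comparable accessions). Without it 28 of 70 were, and 14 of the 45 (31.1%, against 43.8%). ATP5D, which has 2 accessions, was then the 1 member to pass edgeR's test (log2 fold change 0.40, adjusted p = 0.0445). In that setting 3 members had an unadjusted p under 0.05, against 17% of all accessions.

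With ethanol no member passed in shG9a (3.73% of all accessions passed), shGLP (3.61%) or shHP1γ cells (2.91%) in edgeR, or in DESeq2 (6.97%, 5.25% and 5.82%). Members with an unadjusted p under 0.05 numbered 5, 1 and 3, against 15.2%, 13.1% and 14.4% of all accessions. The 95% interval lay within 1.5-fold of no difference for 43, 42 and 40 of the 45 members. Differences as small as the dex calls in shNS cells are not excluded by this bound.

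The difference of the dex effect between depleted and control cells was tested as an interaction, and no member passed for shG9a (0.0885% of all accessions passed), shGLP (0.118%) or shHP1γ (0.0197%) in edgeR, or in DESeq2 (0.331%, 0.423% and 0.299%). At an unadjusted p under 0.05 there were 5, 0 and 0 members, against 6.75%, 3.89% and 3.81% of all accessions. For shG9a, 5 of the 45 single-accession members were below 0 (median 0.14), against 39.4% of comparable accessions, and 11 of 45 were without the replicate 2 dex library (median 0.06, against 41.4%). The 17 complex I members were all above 0 in either case, with a median of 0.23 with the library and 0.09 without it. NDUFAF2 had the largest of these differences, at 0.66 with an unadjusted p = 0.0074 and an adjusted p = 0.615 in edgeR's quasi-likelihood test, and at 0.32 with an unadjusted p = 0.0566 without that library. The lean for shG9a turned on replicate 2. With replicate 2 left out of all groups, 16 of the 45 were below 0 (35.6%, against 41.4% of comparable accessions). Their median was then 0.01, against 0.02. For shGLP 9 of the 45 were below 0 (20%, against 42.9%), and 20 of 45 with replicate 1 left out (44.4%, against 44.5%). For shHP1γ it was 25 of 45 (55.6%, against 42.9%). The 95% interval lay within 1.5-fold for 38, 40 and 40 of the 45 members. That bound too is wider than the dex effects called in shNS cells, so changes of their size are not excluded.

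Genes of the same pathway that the names did not gather were taken from 2 lists. Of 46 other respiratory chain genes (complex II, cytochrome c and further subunits and assembly factors), 30 were tested. With dex in shNS cells 2 of the 30 fell and none rose, where 9.95% of all accessions passed, so they were not called more often than other genes. CYCS, the somatic cytochrome c that carries electrons from complex III to complex IV, went from 541, 579 and 617 CPM to 389, 479 and 442 CPM, a log2 fold change of -0.41 (adjusted p = 0.000344), larger than that of any called member. COA7, a complex IV assembly factor, changed by -0.26 (adjusted p = 0.00796). In shG9a cells, where 6.24% of all accessions passed, 2 of the 30 fell with dex. These were CYCS (-0.28, adjusted p = 0.018) and LRPPRC, which stabilises mitochondrial mRNAs (-0.22, adjusted p = 0.0126). Neither passed without the replicate 2 dex library (-0.22, adjusted p = 0.123, and -0.15, adjusted p = 0.0683). Of 15 regulators of mitochondrial gene expression 5 were tested. The mitochondrial transcription factor TFB2M (-0.23, adjusted p = 0.0363) and the transcription factor YY1 (-0.23, adjusted p = 0.00143) fell with dex in shNS cells. YY1 fell with dex in shGLP cells too (-0.17, adjusted p = 0.0416), where 3.29% of all accessions passed. It was also higher in shGLP than in shNS cells under dex (log2 fold change 0.15 to 0.21 over the alternative settings), where 5.77% of all accessions passed. With replicate 3 left out of all groups none of these calls held. For dex in shNS cells the adjusted p was 0.053 for CYCS, 0.184 for COA7, 0.254 for TFB2M and 0.144 for YY1. For dex in shG9a cells it was 0.274 for CYCS and 0.194 for LRPPRC, and for dex in shGLP cells 0.805 for YY1.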

How the data were processed

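RNA from 24 libraries (8 conditions, 3 replicates each) was sequenced by the authors as paired reads, aligned with HISAT2 to GRCh37, and counted on RefSeq genes with GenomicAlignments. The deposited table holds whole-number raw counts per accession, although its name speaks of CPM; versions, strand handling and the treatment of reads shared between accessions are not given in the sources used here. Columns of the authors' own fold changes and adjusted p-values were not used. The members and lists were chosen with earlier results of these data known. By the rule for named genes, full values went to the members past the test (at most 3 in each direction per comparison, or any past it in 2 comparisons) and levels to paralog pairs and subunit isoforms; ATP5E and the highest members by level were named after their values were seen.

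Accessions above 1 CPM in at least 2 libraries (10167) were tested with edgeR 4.0.16 (R 4.3.3): upper quartile factors and the quasi-likelihood F test on a model of condition and replicate number over all 24 libraries, in 10 comparisons and 3 interactions, with Benjamini-Hochberg adjustment and a limit of 0.05. CPM in the text are counts relative to the scaled library size. Fold changes come from the model with edgeR's prior count. The replicate number stood in the model because the labels place replicates on different days; over 84 pairs of same-numbered groups the correlation of deviations ran from -0.042 to 0.82 (median 0.33), with 5 under 0.1. No libraries were duplicates of each other: replicates differed by a chi-square of 3.27 to 36.2 per degree of freedom. Alternatives were TMM factors, DESeq2 1.42.0, no filter, no replicate number in the model, RUVr with 1 factor, only the groups compared, counts summed per gene and libraries left out. The code was tested on simulated data. Per-library deviations used log2(CPM + 0.5).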

Additional observations from a re-analysis of the deposited data

How the results depend on the processing

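The members past the test, and CYCS, COA7, LRPPRC, TFB2M and YY1, kept their sign in 12 of 12 alternatives. NDUFAF4 with dex in shNS cells passed in 11 of them (log2 fold change -0.34 to -0.28) and lost the call without the replicate block (adjusted p = 0.095 in edgeR's test); it passed in 6, 7 and 5 of 12 in shG9a, shGLP and shHP1γ cells. NDUFA9 and COX19 passed in 9, ATP5B in 6, and of the calls in dex-treated shG9a cells NDUFAF2 passed in 7, NDUFA6 and NDUFS3 in 6 and ATP5G3 in 3. With dex in shNS cells CYCS, COA7 and YY1 passed in 10 and TFB2M in 4. With dex in shG9a cells CYCS and LRPPRC passed in 7, and with dex in shGLP cells YY1 passed in 5. YY1 in shGLP against shNS cells under dex passed in 6.

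With TMM factors, DESeq2 or counts summed per gene, the counts of members called stayed within 1.5 times the reported ones. The others moved as follows. Here a replicate left out means a replicate number left out of all groups, the shG9a dex replicate 2 library alone, or replicate 1 of shHP1γ cells alone. With dex in shNS cells the 4 calls became 2 without the filter on low counts, 1 without the replicate block, 15 when only the groups compared were fitted (21.7% of all accessions) and 1 to 6 when a replicate was left out. The single call with dex in shG9a cells became 0 without the filter, without the block, with RUVr in place of the replicate number and with only the groups compared, and 0 to 3 when a replicate was left out. That in shGLP cells became 0 without the filter, without the block and with RUVr, and 0 to 1 when a replicate was left out. That in shHP1γ cells became 0 under the same 3 settings, 10 with only the groups compared (10.9% of all accessions) and 0 to 1 when a replicate was left out. The 4 calls of shG9a against shNS cells under dex became 0 without the block, 2 with RUVr, 0 with only the groups compared and 0 to 6 when a replicate was left out (0 without the shG9a dex replicate 2 library, and 6 without shHP1γ replicate 1). Counts of 0 became 2 with only the groups compared for shGLP under dex, 0 to 1 when a replicate was left out for shHP1γ under dex, and 1 with only the groups compared and 0 to 1 when a replicate was left out for shG9a with ethanol. They became 1 without the filter and 1 with only the groups compared for shGLP with ethanol, and 1 without the filter for shHP1γ with ethanol and for the shG9a interaction. The share of all accessions passing is not given beside most of these counts, so the moves are not read as particular to these genes. The cause of these moves was not tested. The leave-out and single-library settings for the shG9a dex replicate 2 and shHP1γ replicate 1 libraries were chosen after the data were seen. Most of the 26 members with several accessions are limited by their low counts.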
